A study of Homo sapiens with 24 samples.

Results

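CXXC5 and its relatives are the subject here: a set of 10 genes, CXXC5, CXXC4, CXXC1, TET1, TET2, TET3, KDM2A, KDM2B, KMT2A and DNMT1, taken by name from the 60605 genes of the count table. Nascent transcription of these genes was measured in luminal breast cancer cells that had lost, or still held, the transcription factor TRPS1. All 10 had enough reads to be among the 22326 genes tested. In the 3 clones together, CXXC5 was the member that passed the test for a change with the compound that degrades TRPS1, and it was lower. CXXC4, TET1, TET2 and KDM2B differed between the clones, and DNMT1, TET2 and KMT2A differed between replicate numbers.

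The CXXC zinc finger is a short domain that binds DNA at CpG dinucleotides, in most of these proteins only where the cytosine is unmethylated. It brings enzymes of DNA methylation and of histone methylation to CpG islands, the CpG-rich stretches at which many promoters lie. TET2 is counted with the family although its own protein lacks the domain, since CXXC4, its neighbour on chromosome 4, is thought to have split from it. CXXC5 and CXXC4 are small proteins with little beyond the zinc finger. Both bind Dishevelled, a carrier of the Wnt signal, and CXXC5 is known in breast cells as an estrogen-responsive gene.

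The promoter windows of CXXC5, TET1 and KDM2A show how far members of the family differ in the CpG dinucleotides that their proteins bind. CXXC5 carries the treatment result below, TET1 has the fewest CpGs of the 10 windows, and KDM2A has the most. Each line gives the 250 bases before the gene's most upstream annotated start, on the + strand of GRCh38.p14, with every CpG in capitals. The starts come from the RefSeq promoter table, and each of the 10 windows was taken at the most upstream one. The windows are chr5:139647049-139647298 for CXXC5, chr10:68560087-68560336 for TET1 and chr11:67119013-67119262 for KDM2A.
CXXC5: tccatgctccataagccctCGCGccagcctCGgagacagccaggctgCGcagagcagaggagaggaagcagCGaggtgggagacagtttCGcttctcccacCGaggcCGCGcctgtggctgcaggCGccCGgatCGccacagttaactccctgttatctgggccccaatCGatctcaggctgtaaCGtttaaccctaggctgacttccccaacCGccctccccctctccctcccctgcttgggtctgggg
TET1: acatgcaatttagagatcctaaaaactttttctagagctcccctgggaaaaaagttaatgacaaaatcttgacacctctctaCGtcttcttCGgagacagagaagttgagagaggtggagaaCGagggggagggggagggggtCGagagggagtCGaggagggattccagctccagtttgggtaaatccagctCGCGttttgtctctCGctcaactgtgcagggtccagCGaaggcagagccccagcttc
KDM2A: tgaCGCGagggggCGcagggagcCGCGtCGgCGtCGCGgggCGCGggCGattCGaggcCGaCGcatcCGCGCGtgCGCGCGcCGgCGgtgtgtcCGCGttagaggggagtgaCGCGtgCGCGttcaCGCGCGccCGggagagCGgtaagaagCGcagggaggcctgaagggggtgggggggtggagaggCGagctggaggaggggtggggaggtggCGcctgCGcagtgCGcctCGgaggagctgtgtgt

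The CXXC5 window held 15 CpGs, the TET1 window 9 and the KDM2A window 40, beside a median of 11 over the 35116 promoters of the table. All 10 members had at least 1 promoter in it. TRPS1 has a GATA-type zinc finger, so AGATAA and its reverse complement TTATCT were searched. The paper gives the motif of the GATA family as (A/T)GATA(A/G), and its other forms were not searched. The CXXC5 window held 1 match to AGATAA or TTATCT, where 9.17% of all promoters held any. The windows of the other 9 members held 0 matches to these letters, and they may hold other forms of the motif. The palindromic estrogen response element GGTCANNNTGACC was found in no member's window and in 0.0399% of promoters. Its half-site, GGTCA or TGACC, stood in 32.6% of promoters, and among the members it stood once each in the TET2 and KDM2B windows, 68 and 44 bases before the start. CXXC5 has 7 annotated starts in the table, whose windows held 2 to 33 CpGs. Of these, 2 held the GATA match and 1 the half-site. The CpG order and the motif matches of the 10 members therefore hold for the most upstream starts only. These matches describe letters and not binding.

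T47D is an established luminal, estrogen receptor-positive breast cancer line. Each of Clone 28, Clone 35 and Clone 39 is 1 clone of T47D in which a degron tag was placed in the cells' own TRPS1 gene, so that the DMSO controls carry the tag too. For 90 min, cells received either 0.1% v/v DMSO or 100 nM dTAG-13, a small molecule that sends the tagged protein to degradation. There were 4 dishes for each clone and treatment and 24 libraries in all. None of the libraries came from untagged T47D, so an effect of dTAG-13 itself cannot be told apart from loss of TRPS1. Per the study's methods, some TRPS1 copies in each clone are knocked out, so the DMSO cells are not wild type for TRPS1. PRO-seq sequences the RNA held by engaged RNA polymerase, and its reads in a gene measure transcription under way and not the mRNA present. In such bulk libraries, a smaller number of transcribing cells and less transcription per cell cannot be told apart. The DMSO and dTAG-13 dishes of one clone and replicate number were harvested together, and the replicate numbers at different times of 1 day, so p-values measure the spread between dishes of a single day.

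The libraries held 3226718 to 9575803 reads in genes, with a median of 5042122. Values are CPM, the counts of a gene relative to the library's total, scaled by the trimmed mean of M values (TMM). TRPS1 stood at 5183 to 8747 CPM with DMSO and at 6304 to 9296 CPM with dTAG-13. All 12 pairs had the greater TRPS1 value in the dTAG-13 dish, as did 0.363% of tested genes, and the change was 0.19 ± 0.083 (SE) on the log2 scale (adjusted p = 0.733; 6.65e-04 with the pair as a block). The degron acts on the protein, so these reads do not check its loss. All 9 luminal markers were tested, with a summed level of 3840 to 6210 CPM, ESR1 at 1200 to 1910 CPM and GATA3 at 717 to 985 CPM. The basal list had 2 of 4 genes tested and summed to 16.0 to 27.5 CPM, with KRT5 at 0 to 2 counts and KRT14 at 0 to 5 counts. The fibroblast list (1 of 4 tested) summed to 9.48 to 17.8 CPM, the immune list (1 of 3) to 2.36 to 5.93 CPM and the endothelial list (1 of 2) to 1.20 to 4.78 CPM.

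Whether transcription of the family changed with dTAG-13 was asked first. CXXC5 (ENSG00000171604, hg38 chr5:139647299-139683882, + strand) was lower with dTAG-13. In Clone 28, CXXC5 stood at 105.7, 97.6, 95.3 and 97.6 CPM in the DMSO libraries of replicates 1 to 4 and at 76.7, 87.4, 88.8 and 86.8 CPM with dTAG-13. Every dTAG-13 library of Clone 28 was below every DMSO library, and the share of all tested genes that did so was not counted. Replicate 1 of Clone 28 had both the highest DMSO value and the lowest dTAG-13 value. In Clone 35, CXXC5 stood at 95.8, 92.2, 100.9 and 97.5 CPM with DMSO and at 93.0, 84.5, 91.6 and 97.6 CPM with dTAG-13. In Clone 39, it stood at 95.4, 88.8, 97.0 and 100.5 CPM with DMSO and at 84.4, 79.0, 88.7 and 94.1 CPM with dTAG-13. In Clone 35 and Clone 39 the treatments overlapped, although within each pair of Clone 39 the dTAG-13 library was the lower.

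Over the 3 clones CXXC5 fell by 0.14 on the log2 scale, with a 95% interval of the change from -0.22 to -0.07 (SE 0.0367; adjusted p = 0.0841, edgeR's quasi-likelihood test). An adjusted p under 0.1 was taken as a call, and 123 genes passed, 0.551% of those tested, of which 43 were lower (0.193%). So 1 of the 10 members was called, against that 0.551%. The members were chosen with earlier results of these data known, so this count is no test of the set. CXXC5 was lower in 11 of 12 pairs, as were 0.981% of tested genes in at least 11 of 12. The mean of the 12 pair differences of CXXC5 was -0.15 ± 0.112 (SD, n = 12), from -0.46 in Clone 28 replicate 1 to 0.0016 in Clone 35 replicate 4. With the pair as a block, 521 genes passed (2.33%; 208 lower, 0.932%), and CXXC5 had an adjusted p of 0.00506. Without the block, the call was kept on leaving out any one of Clone 35 DMSO replicate 1 or 2, Clone 35 dTAG-13 replicate 4, Clone 39 DMSO replicate 2 or Clone 39 dTAG-13 replicate 4, and was lost on leaving out any one of the other 19 libraries (adjusted p over all 24 fits 0.0556 to 0.199). Without Clone 28 the change was -0.11 (adjusted p = 1, and 0.333 with the block), without Clone 35 -0.18 (0.255, and 0.0115 with the block) and without Clone 39 -0.14 (0.425, and 0.0639 with the block). With the block, CXXC5 passed in all 12 fits that left out 1 pair of libraries, with adjusted p from 0.003 to 0.0352.

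**Figure D1:**
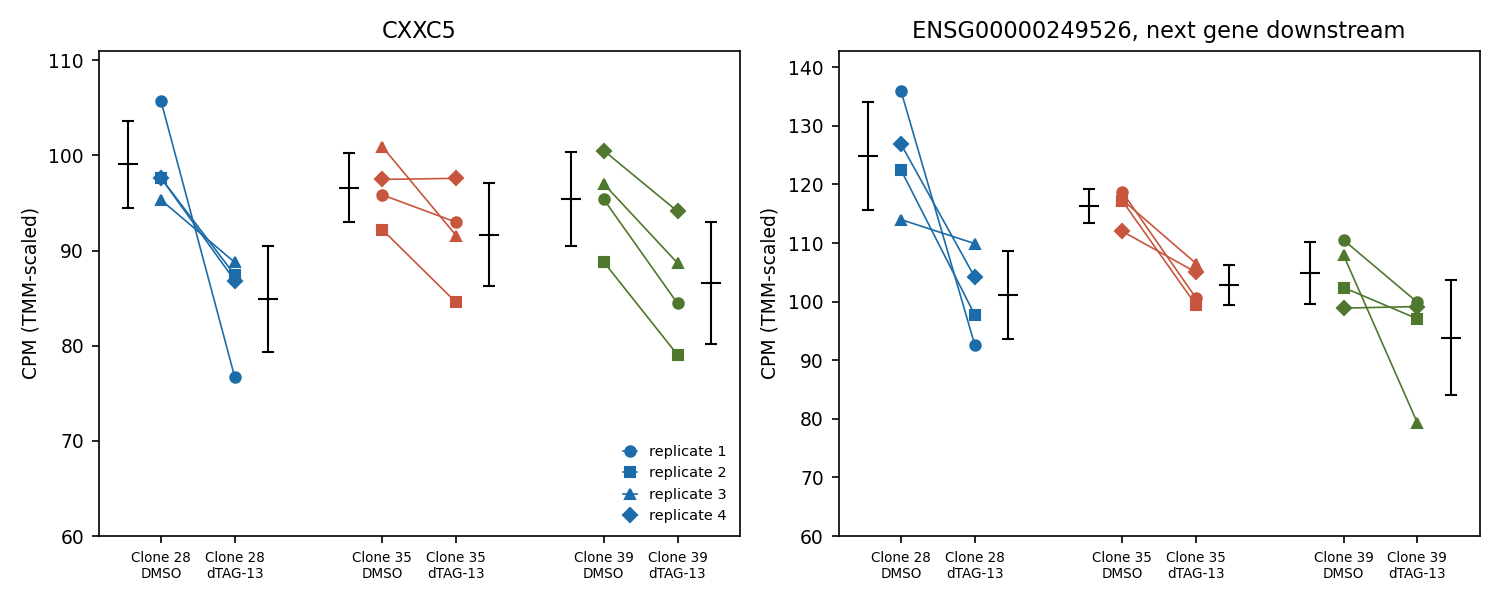
CPM of CXXC5 (left) and of the next gene downstream, ENSG00000249526 (right), in each library, by clone and treatment; a line joins the DMSO and dTAG-13 libraries of one replicate number, bars give the mean ± SD of 4 libraries, and both vertical axes start at 60 CPM. For each gene 11 of 12 lines go down. In Clone 28 the CXXC5 libraries stand at 76.7 to 88.8 CPM with dTAG-13 and at 95.3 to 105.7 CPM with DMSO.

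The change of CXXC5 was -0.22 ± 0.0635 (SE) in Clone 28, -0.07 ± 0.062 in Clone 35 and -0.14 ± 0.0649 in Clone 39. Each clone's change was taken as a contrast within a fit of all 24 libraries, which share an estimate of the spread. In these contrasts 12 genes passed in Clone 28 (0.0537%) and 0 (0%) in Clone 35 and in Clone 39. In Clone 35 and Clone 39, 646 (2.89%) and 754 genes (3.38%) had an unadjusted p under 0.05, and DESeq2 called 1 gene each. CXXC5 had an adjusted p of 0.367 in Clone 28 and of 1 in Clone 35 and Clone 39. With the block, 263 genes passed in Clone 28 (1.18%), 21 in Clone 35 (0.0941%) and 16 in Clone 39 (0.0717%), and CXXC5 passed in Clone 28 (-0.22, adjusted p = 0.0368). Whether the change itself differed between the clones was tested as an interaction. It spanned 0.14 (log2) for CXXC5, with an adjusted p of 1, and 0 genes (0%) passed that test with edgeR, 407 of them (1.82%) having an unadjusted p under 0.05. A smaller change of CXXC5 in Clone 35 than in Clone 28 was therefore not shown.

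The next tested gene after CXXC5 was lower as well. ENSG00000249526, a long non-coding RNA gene at chr5:139684645-139745010 on the same strand, begins 0.763 kb after CXXC5 ends. In Clone 28 it stood at 136.0, 122.5, 114.0 and 126.9 CPM in the DMSO libraries of replicates 1 to 4 and at 92.7, 97.8, 109.9 and 104.2 CPM with dTAG-13. In Clone 35 it stood at 118.7, 117.2, 117.4 and 112.0 CPM with DMSO and at 100.6, 99.4, 106.5 and 105.0 CPM with dTAG-13. In Clone 39 it stood at 110.5, 102.4, 107.9 and 98.9 CPM with DMSO and at 99.9, 97.1, 79.3 and 99.2 CPM with dTAG-13. The treatments did not overlap in Clone 28 or Clone 35 and overlapped in Clone 39. How large a share of all tested genes is separated in this way was not counted. Over the 3 clones ENSG00000249526 fell by 0.21 on the log2 scale (SE 0.0393; adjusted p = 0.0061) and was lower in 11 of 12 pairs. It passed on leaving out any single library and did not pass without Clone 28 (-0.17, adjusted p = 0.597, and 0.0299 with the block) or without Clone 35 (-0.23, adjusted p = 0.107, and 0.0264 with the block).

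Polymerase that runs on past the end of CXXC5 would be counted in this gene, and such reads cannot be told apart from its own. Its DMSO level per length was 1.91 CPM per kb of annotated span, beside 2.65 CPM per kb for CXXC5. Over the 24 libraries, with each clone's mean removed, its log2 CPM had a Pearson correlation of 0.695 with CXXC5. These libraries include both treatments, between which both genes were called. Between the clones in DMSO, ENSG00000249526 differed, with a span of 0.25 (log2; adjusted p = 0.0196). CXXC5 did not, with a span of 0.05 (adjusted p = 0.833). Where the reads of ENSG00000249526 came from was not tested. On the other side, UBE2D2, a ubiquitin-conjugating enzyme gene that ends 18.9 kb before CXXC5 begins, had a change of 0.01 ± 0.034 (SE; adjusted p = 1). Within 300 kb on either side, a window chosen after the values were seen, 12 genes were tested, and CXXC5 and ENSG00000249526 were the 2 that passed.

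None of the other 9 members passed the treatment test. The median change of the 10 members was -0.013 (log2), beside -0.0018 over all genes tested. CXXC4, the small relative of CXXC5 that binds Dishevelled and TET2, changed by 0.09 with an interval from -0.16 to 0.34. CXXC1, the CpG-binding subunit of the SETD1 histone H3 lysine methyltransferase complexes, changed by -0.003 with an interval from -0.18 to 0.18. Both intervals are wide, since CXXC4 had 9 to 65 counts per library and CXXC1 had 34 to 107.

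The TET enzymes oxidise 5-methylcytosine and so start its removal. TET1 changed by -0.05 (interval -0.17 to 0.06), TET2 by 0.03 (-0.06 to 0.12) and TET3 by -0.05 (-0.12 to 0.02). TET1 was lower in 7 of 12 pairs, TET2 in 6 and TET3 in 8. DNMT1, the maintenance DNA methyltransferase that copies methylation onto the new strand, changed by 0.01 (interval -0.11 to 0.13) and was higher in 8 of 12 pairs.

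KDM2A and KDM2B are histone H3 lysine demethylases that bind CpG islands, and KDM2B also brings the Polycomb complex PRC1.1 there. KDM2A changed by -0.02 (interval -0.08 to 0.03). KDM2B changed by -0.08 with an interval from -0.15 to -0.0013 and was lower in 10 of 12 pairs. Its unadjusted p was 0.0464 and its adjusted p 0.774, so that it was not called. KMT2A, a histone H3 lysine methyltransferase of the Trithorax group, changed by 0.01 (interval -0.06 to 0.08). A gene of the same strand, ENSG00000285827, covers 51.2% of KMT2A and had 732 to 2111 counts, so reads of the 2 genes may have been shared and the values of KMT2A are uncertain.

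**Figure D2:**
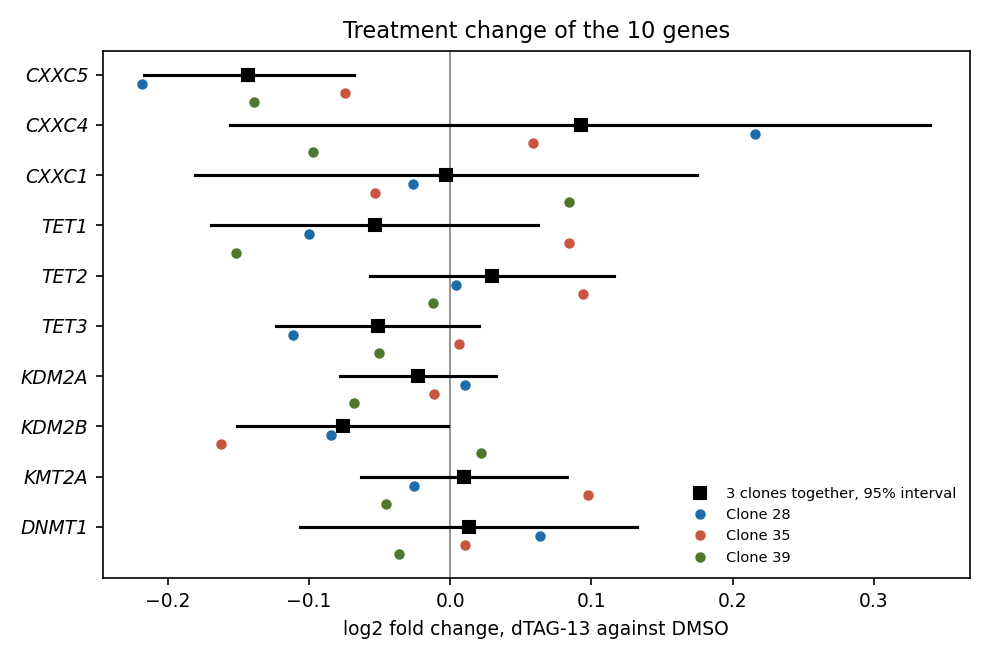
Log2 fold change of the 10 genes, dTAG-13 against DMSO: black squares and lines give the estimate of the 3 clones together with its 95% interval, and coloured points the estimate in each clone. CXXC5 lies below 0 in every clone; the KDM2B interval ends just below 0, at -0.0013, and the other 8 intervals include 0.

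Genes that work with the members were followed in 6 lists. Of 3 other CXXC zinc finger genes, 0 passed, FBXL19 having a change of -0.11 (adjusted p = 0.678). Of 10 further writers and erasers of DNA methylation 0 passed, and of 9 readers of methyl-CpG 0 passed. IDH1, an enzyme that makes the cofactor of TET enzymes, had a change of 0.17 (adjusted p = 0.587) and passed with the block (adjusted p = 0.0918). In the 3 clones together, this was the one call among the list genes that the block added or removed. In the contrast of Clone 28 the block added 1 of 9 readers, 1 of 9 PRC1.1 partners of KDM2B and 2 of 9 luminal markers, beside 1.18% of all genes. It added 1 of the 9 PRC1.1 partners in Clone 35 (0.0941% of all genes) and in Clone 39 (0.0717%). The change of DNMT3A, a de novo DNA methyltransferase, was -0.16 (adjusted p = 0.635). Of 13 partners of the histone H3 lysine 4 methyltransferases 0 passed, MEN1 having a change of 0.09 (adjusted p = 0.991).

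BCOR, the corepressor that anchors PRC1.1, was the 1 of 9 partners of KDM2B in that complex to pass, and it fell by 0.21 on the log2 scale (SE 0.0416; adjusted p = 0.00776). RNF43, a ubiquitin ligase that removes Wnt receptors from the cell surface, was the 1 of 12 Dishevelled and Wnt feedback genes to pass, and it rose by 0.23 (SE 0.039; adjusted p = 0.00255). Those counts stand against 0.551% of all genes tested (2.33% with the block). The lists were chosen with earlier results of these data known, so such counts are no test of them. Both genes passed on leaving out any single library. BCOR did not pass without Clone 28 (-0.22, adjusted p = 0.351, and 1.32e-04 with the block) or without Clone 39 (-0.20, adjusted p = 0.121, and 4.93e-05 with the block). RNF43 did not pass without Clone 28 (0.19, adjusted p = 0.397, and 0.01 with the block). The median change was -0.013 for the PRC1.1 list and -0.048 for the Wnt list, beside -0.0018 over all genes. In the luminal list 2 of 9 passed, against the same 0.551%, both lower: the keratin KRT19 (-0.13, adjusted p = 0.0346) and the ETS factor SPDEF (-0.14, adjusted p = 0.0765). SPDEF lost its call on leaving out any one of 16 of the 24 libraries, and without Clone 28 (-0.12, adjusted p = 1, and 0.192 with the block), Clone 35 (-0.14, adjusted p = 0.634, and 0.0826) or Clone 39 (-0.18, adjusted p = 0.109, and 0.0021). KRT19 lost its call without Clone 28 (-0.10, adjusted p = 1, and 0.185 with the block), Clone 35 (-0.15, adjusted p = 0.308, and 0.00643) or Clone 39 (-0.15, adjusted p = 0.114, and 0.00147). ESR1 changed by 0.06 and GATA3 by -0.05, and neither passed.

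The clones were compared next, in DMSO alone. The level of 6361 genes, 28.5% of those tested, differed between the 3 clones, and 4 of the 10 members were among them. Clone 39 stood apart in general: 26.7% of genes differed between it and Clone 28 and 22.6% between it and Clone 35, beside 5.25% between Clone 35 and Clone 28 (11.9% with replicate number as a block). Each clone is a single line of T47D, and what set it apart from the others was not tested.

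CXXC4 (ENSG00000168772, chr4:104468308-104494901, - strand) was lowest in Clone 39. In DMSO it stood at 7.71, 5.24, 7.32 and 5.89 CPM in Clone 28, at 4.77, 6.09, 5.42 and 5.67 CPM in Clone 35 and at 2.395, 4.375, 2.452 and 1.998 CPM in Clone 39. All 4 Clone 39 libraries lay below the 8 others, which happened on either side for 12.8% of tested genes. CXXC4 was lower in Clone 39 by -1.23 ± 0.237 (log2, SE) against Clone 28 (adjusted p = 1.51e-04) and by -1.0 ± 0.235 against Clone 35 (adjusted p = 0.00182). The antisense gene CXXC4-AS1, which covers 15.2% of CXXC4, was lower there too, at 3.54 to 6.39 CPM in Clone 39 beside 9.43 to 10.7 CPM in Clone 28 and 7.87 to 8.29 CPM in Clone 35 (39 against 28, -1.12, adjusted p = 1.7e-05). The sources do not give the strand setting of the counting, so reads of the 2 genes in their shared stretch cannot be told apart.

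TET1 (ENSG00000138336, chr10:68560337-68694487, + strand) was highest in Clone 39. In DMSO it stood at 36.1, 29.3, 28.8 and 27.5 CPM in Clone 28, at 33.4, 34.3, 33.0 and 29.6 CPM in Clone 35 and at 50.5, 46.6, 51.2 and 43.95 CPM in Clone 39. The 4 Clone 39 libraries lay above the 8 others. TET1 was higher in Clone 39 by 0.66 ± 0.0985 (log2, SE) against Clone 28 (adjusted p = 3.12e-06) and by 0.56 ± 0.0956 against Clone 35 (adjusted p = 2.82e-05).

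TET2 (ENSG00000168769, chr4:105145875-105279816, + strand) was also higher in Clone 39. In DMSO it stood at 90.7, 103.5, 90.8 and 87.2 CPM in Clone 28, at 92.7, 104.7, 90.8 and 84.9 CPM in Clone 35 and at 122.5, 124.6, 110.9 and 102.9 CPM in Clone 39. The lowest Clone 39 library overlapped the highest of each other clone. TET2 was higher in Clone 39 by 0.31 ± 0.0758 (log2, SE) against Clone 28 (adjusted p = 0.00272) and by 0.31 ± 0.0749 against Clone 35 (adjusted p = 0.00279). Its antisense gene TET2-AS1 had 0 to 2 counts in a library, beside 353 to 955 for TET2.

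KDM2B (ENSG00000089094, chr12:121429096-121581023, - strand) was lowest in Clone 35. In DMSO it stood at 93.7, 92.8, 98.1 and 96.2 CPM in Clone 28, at 87.0, 79.3, 83.6 and 88.6 CPM in Clone 35 and at 94.2, 96.8, 105.4 and 93.1 CPM in Clone 39. The 4 Clone 35 libraries lay below the 8 others, and Clone 35 stood outside the range of the others on either side for 2.15% of tested genes. KDM2B was higher in Clone 39 than in Clone 35 by 0.20 ± 0.062 (log2, SE; adjusted p = 0.0196), and the difference of Clone 35 from Clone 28 was -0.17 ± 0.0618 (adjusted p = 0.147, and 0.0264 with the block). On leaving out Clone 35 DMSO replicate 2, the test over the 3 clones gave an adjusted p of 0.104.

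**Figure D3:**
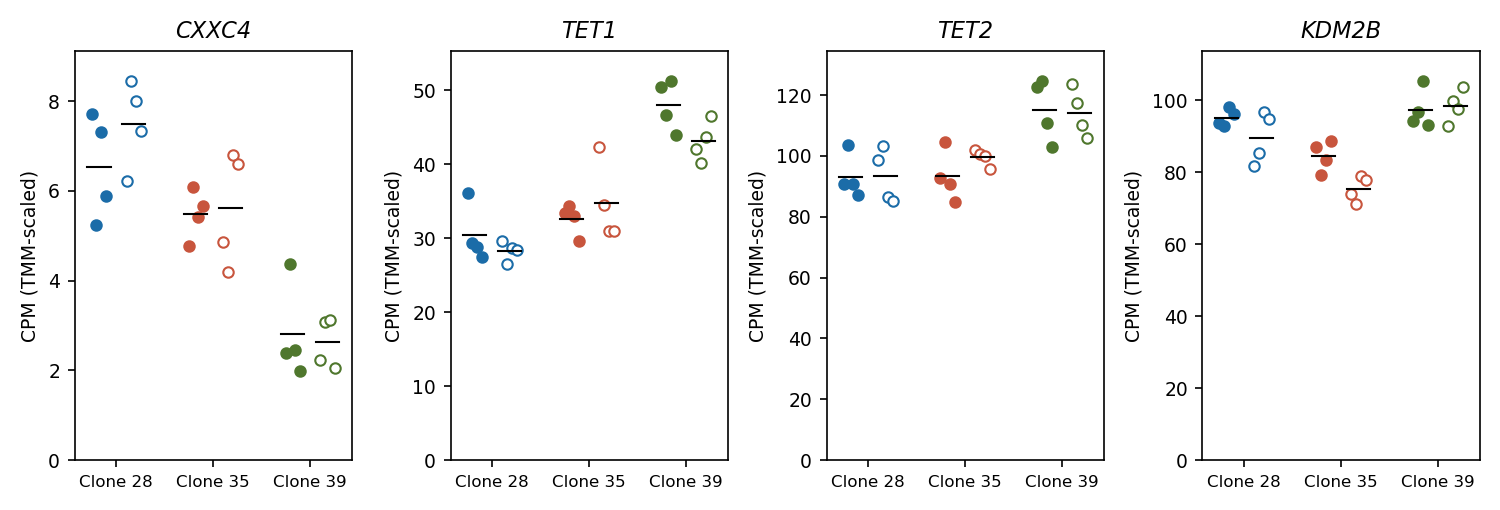
CPM of CXXC4, TET1, TET2 and KDM2B in each library by clone; filled points are DMSO, open points dTAG-13, and bars the mean of 4 libraries. In DMSO, CXXC4 lies lowest and TET1 and TET2 highest in Clone 39, and KDM2B lies lowest in Clone 35.

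The other 6 members did not pass between the clones. CXXC5 spanned 0.05 (log2) between the clones' DMSO means, with an adjusted p of 0.833, beside its treatment change of -0.14. CXXC1 spanned 0.22, DNMT1 0.11, KDM2A 0.09, TET3 0.08 and KMT2A 0.05. With the block, KDM2A was higher in Clone 39 than in Clone 28 by 0.08 (adjusted p = 0.0927). The share of all genes that passed that comparison with the block is not given here. The median span of the 10 members was 0.16, beside 0.27 over all genes.

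Among the Dishevelled and Wnt feedback genes 7 of 12 differed between the clones, against 28.5% of all genes tested, with a median span of 0.41 (log2). Clone 39 stood below Clone 28 for DVL2 (-0.77), DVL3 (-0.43), RNF43 (-0.65), NKD2 (-0.88), CTNNB1 (-0.26) and DKK1 (-4.24), and Clone 35 stood below Clone 28 for LEF1 (-1.37). DVL2 and DVL3 encode Dishevelled, CTNNB1 encodes beta-catenin, LEF1 is a transcription factor that acts with it, and NKD2 and DKK1 are inhibitors of the pathway. Among methyl-CpG readers, MBD2 (-0.30), MBD4 (-0.74), ZBTB38 (-0.41) and ZBTB4 (-0.92) passed and stood lower in Clone 39 than in Clone 28. Of the histone H3 lysine 4 methyltransferase partners, 5 of 13 passed, against the same 28.5%: SETD1B (-0.34) and KMT2D (-0.25) stood lower and KMT2C (0.17) and DPY30 (0.18) higher in Clone 39 than in Clone 28, and PSIP1 was lower in Clone 35 than in Clone 28 (-0.35). In the remaining lists, FBXL19 (0.30) and IDH1 (0.35) stood higher and the KDM2B partners BCOR (-0.21) and YAF2 (-0.42) lower in Clone 39 than in Clone 28. Among the markers, GATA3 (-0.26), KRT8 (-0.45), KRT18 (-0.57) and TP63 (-0.78) stood lower and ACTA2 (0.99) and PTPRC (0.69) higher in Clone 39 than in Clone 28, and PGR stood lower in Clone 35 than in Clone 28 (-0.70). On leaving out each of the 24 libraries in turn, the call over the 3 clones was kept in 7 fits for IDH1, 17 for PTPRC, 18 for KMT2C, 21 for PSIP1, 22 for FBXL19 and MBD2 and 23 for BCOR and DPY30, and in all 24 for the other genes listed. With replicate number as a block, DNMT3B, OGT, UHRF1, UHRF2, KDM6A, RNF2, ZNRF3, ESR1, XBP1 and SPDEF passed as well. The share of all genes that passed this blocked test over the 3 clones is not given here. Between Clone 35 and Clone 28 the block raised that share from 5.25% to 11.9%, so added calls are not particular to these genes.

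Replicate numbers, which mark dishes harvested at different times of the day, differed for 8355 genes, 37.4% of those tested, and for 3 of the 10 members. Each number holds as many DMSO as dTAG-13 libraries, so that it is not confounded with treatment. The labels do not say whether one number marks one time in all 3 clones.

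DNMT1 (ENSG00000130816, chr19:10133342-10231286, - strand) was higher in replicates 3 and 4. Over the 6 libraries of each number, its lowest, median and highest values were 83.6, 92.9 and 108.2 CPM in replicate 1, 83.9, 91.8 and 98.8 CPM in replicate 2, 98.3, 108.7 and 119.8 CPM in replicate 3 and 104.5, 109.8 and 116.5 CPM in replicate 4. In Clone 28 and Clone 35, every library of replicates 3 and 4 lay above every library of replicates 1 and 2. The share of all tested genes that did so was not counted. In Clone 39, the DMSO library of replicate 1, at 108.2 CPM, lay above that of replicate 3, at 104.6 CPM. The means spanned 0.26 (log2; adjusted p = 2.65e-07). DNMT3B, a de novo DNA methyltransferase, and UHRF1, which brings DNMT1 to newly copied DNA, differed in the same direction. DNMT3B had means of 34.5, 34.3, 46.3 and 43.95 CPM in replicates 1 to 4 (adjusted p = 5.78e-08), and UHRF1 had 103.4, 99.7, 119.1 and 126.6 CPM (adjusted p = 7.61e-10).

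TET2 was lower in replicates 3 and 4. Its lowest, median and highest values were 90.7, 100.2 and 123.5 CPM in replicate 1, 100.7, 104.1 and 124.6 CPM in replicate 2, 86.6, 95.4 and 110.9 CPM in replicate 3 and 84.9, 91.5 and 105.9 CPM in replicate 4. The 4 numbers overlapped, and the means spanned 0.22 (log2; adjusted p = 1.02e-04). ESR1, which encodes the estrogen receptor, was likewise lower, with means of 1709, 1751, 1515 and 1421 CPM (adjusted p = 3.17e-06).

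KMT2A was lowest in replicate 1 and highest in replicate 2. Its lowest, median and highest values were 192.5, 220.2 and 237.2 CPM in replicate 1, 225.0, 244.7 and 251.5 CPM in replicate 2, 215.9, 229.3 and 255.1 CPM in replicate 3 and 213.8, 230.7 and 246.8 CPM in replicate 4. The ranges overlapped, the means spanned 0.15 (log2; adjusted p = 0.0156), and the call was lost without Clone 35 (adjusted p = 0.127). TTC36-AS1, an antisense gene over 18.3% of KMT2A with 111 to 341 counts, passed this test too (span 0.21, adjusted p = 0.0478). ENSG00000285827, which covers 51.2% of KMT2A, did not (0.09, adjusted p = 0.165). Reads of KMT2A and these genes may have been shared. CXXC5 spanned 0.12 (adjusted p = 0.164), TET1 0.20 (adjusted p = 0.11) and KDM2B 0.10 (adjusted p = 0.125). None of the 3 passed in the main setting, and each passed in some other settings.

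**Figure D4:**
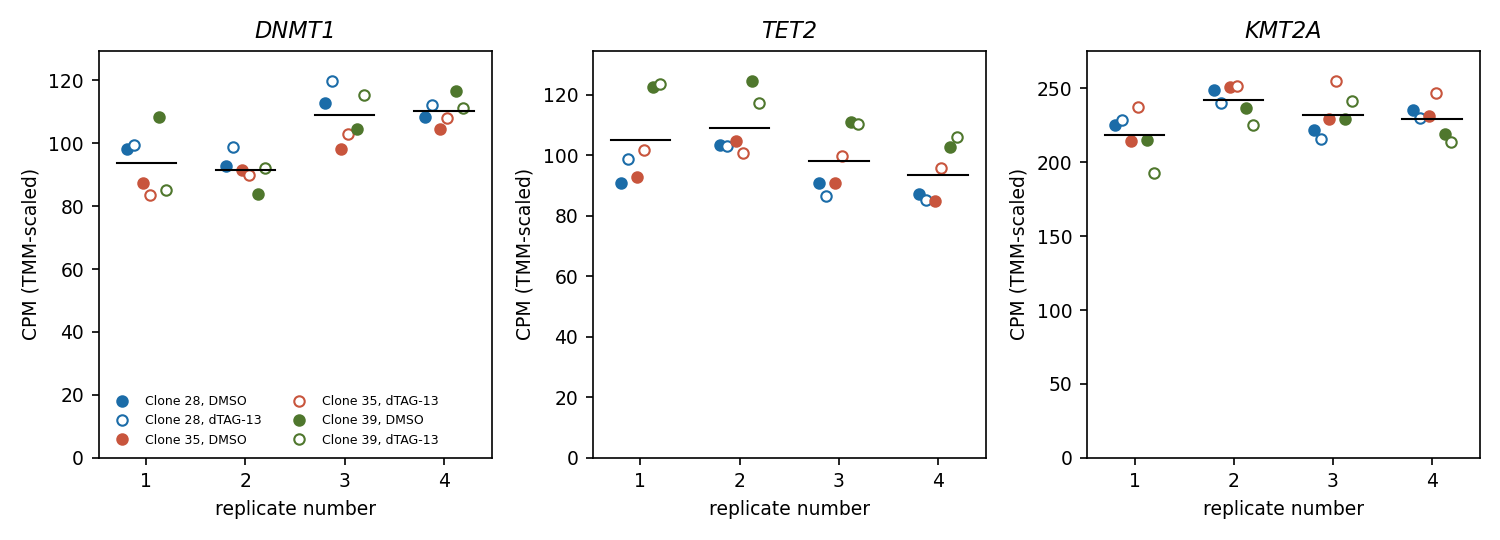
CPM of DNMT1, TET2 and KMT2A in each library by replicate number; colours give the clone, filled points DMSO, open points dTAG-13, and bars the mean of 6 libraries. DNMT1 is higher and TET2 lower in replicates 3 and 4 than in 1 and 2, and KMT2A is lowest in replicate 1.

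The lists also differed by replicate number, except the 3 other CXXC zinc finger genes, of which 0 passed. Beside DNMT3B and UHRF1, the writers and erasers TDG and OGT passed, as did the readers MBD2, MBD3, MBD4, MBD5 and ZBTB38. The methyltransferase partners SETD1B, KMT2C, KMT2D, WDR5, MEN1, PSIP1 and KDM6A passed, and so did the KDM2B partners PCGF1, BCOR, BCORL1, RYBP and YAF2. Of the Wnt list DVL2, DVL3, AXIN1, NKD2 and LEF1 passed. That was 4 of 10, 5 of 9, 7 of 13, 5 of 9 and 5 of 12 genes, against 37.4% of all genes tested. Of the luminal markers 7 of 9 passed, ESR1, PGR, GATA3, KRT8, KRT18, XBP1 and SPDEF, and of the basal markers TP63 and ACTA2. On leaving out each library in turn, the call was kept in 8 of 24 fits for DVL2, 10 for SPDEF, 12 for OGT, 13 for TDG, 16 for ACTA2, 17 for RYBP, 21 for TP63, 22 for ZBTB38, 23 for MBD2, PCGF1 and PSIP1 and all 24 for the other genes listed.

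Per length, levels in the 12 DMSO libraries were compared as mean CPM per kb of annotated gene span. KDM2A stood highest at 3.16 ± 0.146 (SD, n = 12), followed by CXXC5 at 2.65 ± 0.117, KMT2A at 2.54 ± 0.132 and CXXC1 at 2.12 ± 0.339. DNMT1 stood at 1.03 ± 0.105 and TET3 at 0.992 ± 0.0593. TET2 stood at 0.751 ± 0.0999 and KDM2B at 0.608 ± 0.0459, and TET1 at 0.276 ± 0.0648 and CXXC4 at 0.186 ± 0.0699 were lowest. In this order the ranges of neighbours overlapped except between CXXC1 and DNMT1, between TET3 and TET2 and between KDM2B and TET1. The annotated span counts alternative starts, so a gene that uses a later start has a level per length that is too low.

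The 5 tested genes most like CXXC5, by Pearson correlation of log2 CPM over the 24 libraries with each clone's mean removed, were CACNG4 (0.851), BCAS4 (0.835), KRT7 (0.793), ZNRF1 (0.789) and DLG5 (0.788). These points share the treatment and the collection times. CACNG4 (-0.21, adjusted p = 0.0225) and KRT7 (-0.15, adjusted p = 0.0955) passed the treatment test, and BCAS4, ZNRF1 and DLG5 did not. Of the members, TET3 (0.536) and KDM2B (0.49) had the highest correlation with CXXC5 and TET2 (-0.406) the lowest.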

How the data were processed

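The deposited table holds counts of PRO-seq reads per gene, made by the authors and not normalized, for 24 libraries. Per the labels, their reads were processed with cutadapt 1.8.1, Bowtie2 2.4.4 and SAMtools 1.9 on hg38. Per the study's methods, duplicates were removed by UMI with fqdedup, rDNA reads were left out and bedtools did the counting in genes; the gene intervals and the strand setting are not given in the sources used here. Gene places came from GENCODE release 44, and 60463 of 60605 genes matched. Genes were kept with filterByExpr (minimum count 10), scaled by TMM and tested with edgeR 4.0.16 (R 4.3.3), glmQLFit and glmQLFTest, two-sided, with Benjamini-Hochberg adjustment over 22326 genes and a threshold of 0.1; the model had clone as a covariate, or 6 groups for single clones and differences between them. The fits without the block were run on simulated data. Apart from the changes put in, the simulated libraries varied independently, and those changes were larger than the treatment change of CXXC5. The block was not simulated, so the simulation does not bear on it or on changes as small as that of CXXC5. Where a gene's groups are compared as a set (clones, replicate numbers), the value is the span between the highest and lowest fitted group on the log2 scale.

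Replicates of a group differed by more than counting noise (chi-square per degree of freedom 1.65 to 13.6 over 36 pairs of libraries). Per the labels, the DMSO and dTAG-13 dishes of one replicate were collected together, so same-numbered libraries of a clone were paired; the correlation of their deviations from the group means was 0.185 on average, 0.0926 to 0.318, and over 0.1 in 11 of 12 pairs. The fit without the pair is the main one and the block the alternative. Other alternatives were RLE size factors, library totals, 2 other filters, DESeq2 1.42.0, a threshold of 0.05, and leaving out each library or clone; leaving out clones or pairs with the block was chosen after seeing the data. Members and lists were chosen with earlier results of these data known. Named are all members, every list gene that passed in a comparison (1 is not reported here) and otherwise up to 3 genes of a list with the largest treatment change, TRPS1, ESR1, GATA3, overlapping genes, the nearest tested genes beside CXXC5 and the 5 genes most like it. Protein sequences were not used here.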

Additional observations from a re-analysis of the deposited data

Results flagged for a closer look

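In each group of 4 libraries, a library was picked out where its gap to the nearest other, over the range of the group, was above Dixon's critical value for 4 values. Of 60 groups, 10 genes in 6 groups each, 3 held such a library, and chance gives about 1 in 20 groups, or 3. CXXC5 stood at 76.7 CPM in Clone 28 dTAG-13 replicate 1, below the 86.8 to 88.8 CPM of the 3 others. KDM2A stood at 392 CPM in Clone 28 DMSO replicate 3, below 433 to 437 CPM, and at 414 CPM in Clone 35 dTAG-13 replicate 2, below 443 to 449 CPM. Without the first of these libraries the treatment change of CXXC5 in the 3 clones was -0.13.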

How the results depend on the processing

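The treatment call of CXXC5 kept its direction in every fit and was lost with library totals (adjusted p = 0.122), with no filter (0.158) and without Clone 28, 35 or 39 (1, 0.255 and 0.425; 0.333, 0.0115 and 0.0639 with the block). It was kept with RLE size factors (0.0908), at least 10 counts in every library (0.0705) and DESeq2 (0.0544). Members called in the 3 clones were 0 with library totals, no filter, a threshold of 0.05, or any clone left out, and 0 with the block without Clone 28; leaving out 1 library gave 0 to 1. All genes called, 123 in the main setting, were 197 with no filter, 64 at 0.05, 521 with the replicate block, 1 without Clone 28, 37 without Clone 35 and 37 without Clone 39, 177, 359 and 382 with the block without Clone 28, Clone 35 and Clone 39, 66 to 149 on leaving out 1 library (fewest, 66 to 80, without Clone 28 DMSO replicate 3 or 4, Clone 28 dTAG-13 replicate 1 or 2, Clone 35 dTAG-13 replicate 3 or Clone 39 DMSO replicate 3) and 401 to 574 with the block on leaving out 1 pair. In Clone 28, 12 genes became 23 with at least 10 counts in every library, 39 with DESeq2, 22 with library totals, 87 with no filter, 263 with the block (1 member, CXXC5), 7 with RLE and 4 at 0.05, and 2 to 28 on leaving out 1 library. In Clone 35 and Clone 39, 0 became 1 and 1 with DESeq2, 4 and 2 with no filter and 21 and 16 with the block; leaving out 1 library gave 0 to 1 in Clone 39. The difference of the change between clones went from 0 to 6 with no filter and to 1 with the block. By replicate number, members called went from 3 to 5 with library totals or no filter, CXXC5 and KDM2B being added (3 to 5 on leaving out 1 library) and all genes to 5370 without Clone 28. TET1 passed with RLE size factors (adjusted p = 0.0941), with at least 10 counts in every library (0.0743) and without Clone 39 (0.0559). CXXC5 passed without Clone 28 (0.0524). On leaving out each library in turn, TET1 passed in 5 of 24 fits, KDM2B in 3 and CXXC5 in 1. The block changed no other treatment call among the members.

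Signs that turned belong to changes near 0 that never passed. CXXC1 became 0.0093 without Clone 28 and 0.026 without Clone 35 (0.0091 and 0.027 with the block), and lay from -0.054 to 0.045 on leaving out 1 library or 1 pair. DNMT1 became -0.012 without Clone 28 (-0.014 with the block; from -0.0099 to 0.043 on leaving out 1 library or pair), KDM2A 0.0011 without Clone 39 (0.0018), KMT2A -0.035 without Clone 35 (-0.036; from -0.0057 to 0.028) and TET2 -0.0036 without Clone 35 (-0.0033). KDM2B lost its clone difference with no filter (adjusted p = 0.212), and among the list genes so did PTPRC (DESeq2, no filter), IDH1 (DESeq2, library totals), KMT2C (at least 10 counts in every library, no filter), DPY30 (no filter) and PSIP1 (library totals). By replicate number, ACTA2, DVL2, MBD2, NKD2, OGT, PSIP1, RYBP, SPDEF, TDG, TP63 and ZBTB38 lost their call with DESeq2, and KRT8 and LEF1 with the DMSO libraries only. Each of these genes, and MBD4 and PCGF1, also lost it without at least 1 of the clones. The treatment call of SPDEF was lost with no filter (0.141). The cause was not tested. The median change of all genes moved by less than 0.1 under other scalings (-0.00037 with RLE and -0.003 with library totals, beside -0.0018). Few counts limit CXXC4 (9 to 65) and CXXC1 (34 to 107).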
